A study of Tupaia belangeri with 2 samples.

Results

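The 36 genes described here are subunits of the receptors for glutamate, GABA and glycine in the developing tree shrew (Tupaia belangeri) brain. They were chosen by name: of 18543 gene names in the annotation, 47 matched a pattern for these families, and 36 of the 47 had at least 20 unique molecular identifiers (UMIs, each marking 1 captured transcript) over both libraries. The families were AMPA receptors (3 of 3 names), kainate receptors (4 of 4), NMDA receptors (6 of 7), delta receptors (2 of 2), metabotropic glutamate receptors (6 of 8), GABA-A receptors (11 of 14), rho subunits (1 of 2), GABA-B receptors (2 of 2) and glycine receptors (1 of 5). The names under the minimum were GABRD, GABRE, GABRP, GABRR3, GLRA1, GLRA2, GLRA3, GLRA4, GRIN2C, GRM2 and GRM6. No model bore the names GRIA3 or GRIK1, and 2 further models named NMDZ1, with 38 and 108 UMIs, lay outside the pattern although that name is another one for the obligatory NMDA subunit GRIN1, so the GRIN1 values below hold only part of that gene. Models with the GABA-A subunit names GBRT (20 and 1 UMIs) and GBRE (11 UMIs) also lay outside it, so the GABA-A family is not complete here.

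The data were droplet single-cell libraries (3′ kit, v3 chemistry) of dissociated whole brains, 1 library from each of 2 embryos of 4 to 5 postconceptional weeks, with no treatment, genotype or second age. Embryo 1 gave 8408 and embryo 2 gave 9327 cells with at least 200 genes, with medians of 3539 and 3169 UMIs per cell and totals of 38192755 and 35785697 UMIs. The libraries shared 18 cell barcodes. In these cells the 36 members took 7529 and 9549 UMIs, together 0.0231% of all UMIs, and AMPA and GABA-A subunits made up 40.1% and 32.1% of these.

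Ionotropic receptors are channels built of several subunits, and the subunits present set which ions pass, how fast the channel closes and which drugs bind. AMPA, kainate and NMDA receptors open on glutamate, GABA-A and glycine receptors pass chloride, and the metabotropic glutamate and GABA-B receptors signal through G proteins. In the embryonic brain these receptors are made before most synapses exist, and GABA can depolarise immature cells whose chloride is kept high by the importer SLC12A2, before the exporter SLC12A5 takes over.

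Cells were grouped into 18 clusters without the use of the receptor genes, and clusters were named from fixed markers. The names stand for likeness to those markers (forebrain inhibitory neuron-like and so on), and the suffix is left out in what follows. The inhibitory classes were midbrain or hindbrain inhibitory neurons (cluster 0, 3024 cells, GATA3, OTX2, PAX7) and forebrain inhibitory neurons (cluster 1, 2309 cells, DLX2, DLX5, SIX3). The excitatory classes were midbrain or thalamus excitatory neurons (cluster 2, 1718 cells, SLC17A6, LHX9, SHOX2) and cortical excitatory neurons (cluster 8, 959 cells, NEUROD2, NEUROD6, TBR1). The progenitor classes were radial glia (clusters 3 and 12, 1998 cells, VIM, NES) and dividing cells (clusters 5, 9 and 10, 2684 cells, MKI67, TOP2A). Within the radial glia, PAX6 counted as a marker in cluster 3 but not in cluster 12, where the astrocyte marker GJA1 counted. GAD2, which makes GABA, had 1267 and 1320 UMIs per 1000000 (CPM, mean of the embryos) in clusters 0 and 1 against 34.8 and 43.9 in clusters 2 and 8. Cluster 4 (1383 cells, led by SST, TAU and CBLN1) and cluster 11 (461 cells, TCF7L2 and ZIC genes) met the marker rule for granule neurons. That name was withheld after the data were seen, because ATOH1 and BARHL1 were not found. Cluster 6 (1279 cells, DBX1, CDKN1C, DLL3) had too few markers for a name. All were left unnamed and entered no main test, and clusters 4 and 11 entered 1 alternative setting as a granule class. No cluster earned the name of neurogenic precursor, so the comparison planned for that class was not run.

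Free RNA puts transcripts of neurons into every droplet, and erythroid cells, which should lack these receptors, measured this background. The 1009 erythroid cells, in which haemoglobin took 88.3% and 88.0% of UMIs, held 5.91 GRIA2 UMIs per 100 cells in embryo 1 and 7.79 in embryo 2. GABRA2 had 2.06 and 2.16 there. Counted per 100 cells, with exact 95% Poisson intervals that did not overlap those of erythroid cells in either embryo, 22 of the 36 members exceeded this background in at least 1 cluster and 14 in none. Cluster 4 held 17 such members, clusters 2 and 11 held 7 each, cluster 12 held 6, clusters 0 and 1 held 5 each, clusters 8 and 9 held 4 each, cluster 5 held 2, clusters 3 and 6 held 1 each and cluster 10 held 0. The share of all genes that exceeded this background was not counted, and the clusters differed in cells and depth. These counts therefore do not set the receptors apart from other genes or rank the clusters. Intervals here and below cover counting error only.

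**Figure D1:**
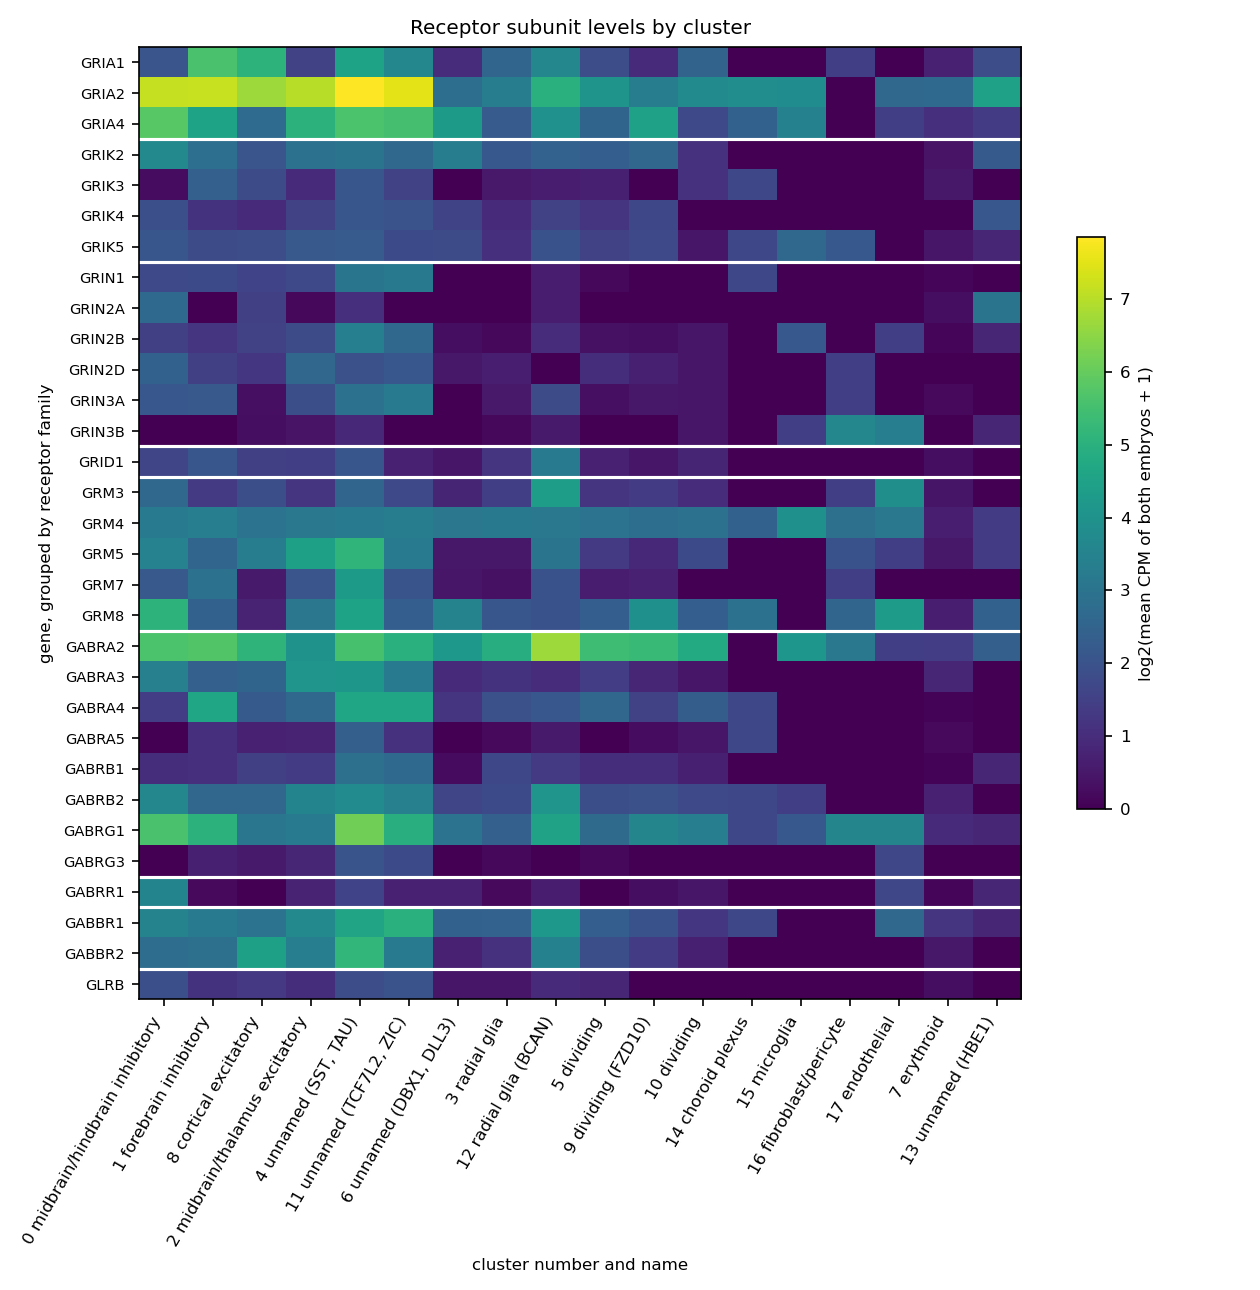
Level of 31 members (rows, by family) in each of the 18 clusters (columns), as log2(mean CPM of the 2 embryos + 1). GRIA2 is high across the neuron clusters and GABRA2 is also high in radial glia and dividing cells, while most NMDA subunits are low throughout.

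Summed over all 36 members, cluster 4 had the highest level, 734 CPM in embryo 1 and 733 in embryo 2. The unnamed cluster 11 followed with 490 and 482 CPM. The named neuron classes had 441 and 488 CPM in midbrain or hindbrain inhibitory neurons, 421 and 429 in forebrain inhibitory neurons, 346 and 331 in midbrain or thalamus excitatory neurons and 288 and 271 in cortical excitatory neurons. Radial glia had 138 and 142 CPM and dividing cells 113 and 122. The embryos lay close together in each of these classes. Single members differed more: of 648 pairs of member and cluster, 9 had intervals that did not overlap between the embryos. Of these 9, 4 lay in cortical excitatory neurons, so the values of those members in that class rest on embryos that differed. The share of all genes with such intervals was not counted.

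The first comparison asked which subunits separated neurons from progenitors. For each embryo the UMIs of a class were summed and compared by edgeR's quasi-likelihood test with the embryo as a block, and p-values were adjusted by the Benjamini-Hochberg method over 10217 genes. Of the 36 members, 25 passed the filter on low counts. The mean of the 4 neuron classes was higher than that of radial glia and dividing cells for 16 of the 25 and lower for 2, where 31.5% of all genes tested were higher and 33.4% lower. The median log2 difference was 1.22 over the 25 and -0.02 over all genes tested. The higher members included 3 of 3 AMPA, 2 of 3 kainate, 1 of 3 NMDA, 2 of 5 metabotropic, 6 of 7 GABA-A and 2 of 2 GABA-B subunits. Members that passed through the class where they are high had to differ, so these counts describe the 25 and not all 36.

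GRIA2, the subunit that makes AMPA receptors impermeable to calcium, had 139 and 152 CPM in forebrain inhibitory neurons (embryos 1 and 2), 136 and 145 in midbrain or hindbrain inhibitory neurons, 139 and 117 in midbrain or thalamus excitatory neurons and 95.1 and 110 in cortical excitatory neurons. Radial glia had 13.2 and 14 CPM and dividing cells 11.8 and 14.3. Every neuron class lay above both progenitor classes in both embryos, and the log2 difference was 3.13 ± 0.10 (SE, n = 2 embryos, adjusted p = 1.87e-45). Per 100 cells GRIA2 had 33.0 to 52.1 UMIs in the neuron classes, whereas clusters 3, 5, 9 and 10 had 3.58 to 10.7, with intervals that overlapped those of erythroid cells in at least 1 embryo. In these clusters the level of GRIA2 was therefore not distinguishable from background at this depth. Cluster 12, the other part of the radial glia, had 14.8 (10.1 to 21.1) and 15 (10.2 to 21.3) against 5.91 (4.33 to 7.89) and 7.79 (4.62 to 12.3) in erythroid cells, so its interval lay above that of erythroid cells in embryo 1 and overlapped it in embryo 2. After thinning each cell to 2000 UMIs, a GRIA2 UMI was seen in 16.1% to 23.2% of cells of the neuron classes, 2.34% and 2.56% of radial glia and 0.999% and 0.878% of erythroid cells. Without thinning the shares were 26.0% to 37.6%, 4.81% and 5.58%, and 5.14% and 6.06%, at median depths of 2154 to 4590 UMIs in neurons, 3829 and 3995 in radial glia and 12426 and 14320 in erythroid cells. The 2000 UMIs include haemoglobin, which took 88.3% and 88.0% of UMIs in erythroid cells. Thinned shares of erythroid cells, here and below, are therefore low by construction and do not measure background.

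GABRA3, an α subunit of fetal GABA-A receptors, had 3.94 to 18.3 CPM against 0.702 to 1.68, a log2 difference of 2.47 ± 0.28 (adjusted p = 2.21e-12). GRM5, a receptor that raises intracellular calcium, had 4.55 to 22.6 CPM against 1.05 to 3.04, a log2 difference of 2.45 ± 0.26 (adjusted p = 1.23e-13). For both genes no neuron class overlapped a progenitor class in either embryo. Of the classes compared, only neuron classes reached the level of the filter on low counts for GABRA3 and GRM5.

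Further members that were higher in neurons had log2 differences between 0.61 and 1.97. Among them were GRIN2D, an NMDA subunit typical of early development (1.97 ± 0.47), GRM7 (1.72 ± 0.58), GABBR2 (1.69 ± 0.24), GRIK3 (1.38 ± 0.63), GRIA4 (1.32 ± 0.16), GRIA1 (1.22 ± 0.23), GABRG1 (0.94 ± 0.17), GABRB2 (0.83 ± 0.23), GABBR1 (0.77 ± 0.20), GRIK2 (0.61 ± 0.22) and GABRA4 (0.61 ± 0.27). Of the classes compared, only neuron classes reached the level of the filter on low counts for GRIN2D, GRM7, GRIK3 and GRIK2. The values of these genes are therefore given as a description. GABRA4 had a log2 difference of 0.99 in embryo 1 and -0.01 in embryo 2, so its call rests on embryo 1. GRM8 had 11.4 CPM as the mean of the neuron classes and 5.34 in progenitors, yet its log2 difference was 0.00, since the fit averages log levels and GRM8 was low in cortical excitatory neurons. GRM4 was flat, with 6.46 to 9.42 CPM across every neuron and progenitor class.

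**Figure D2:**
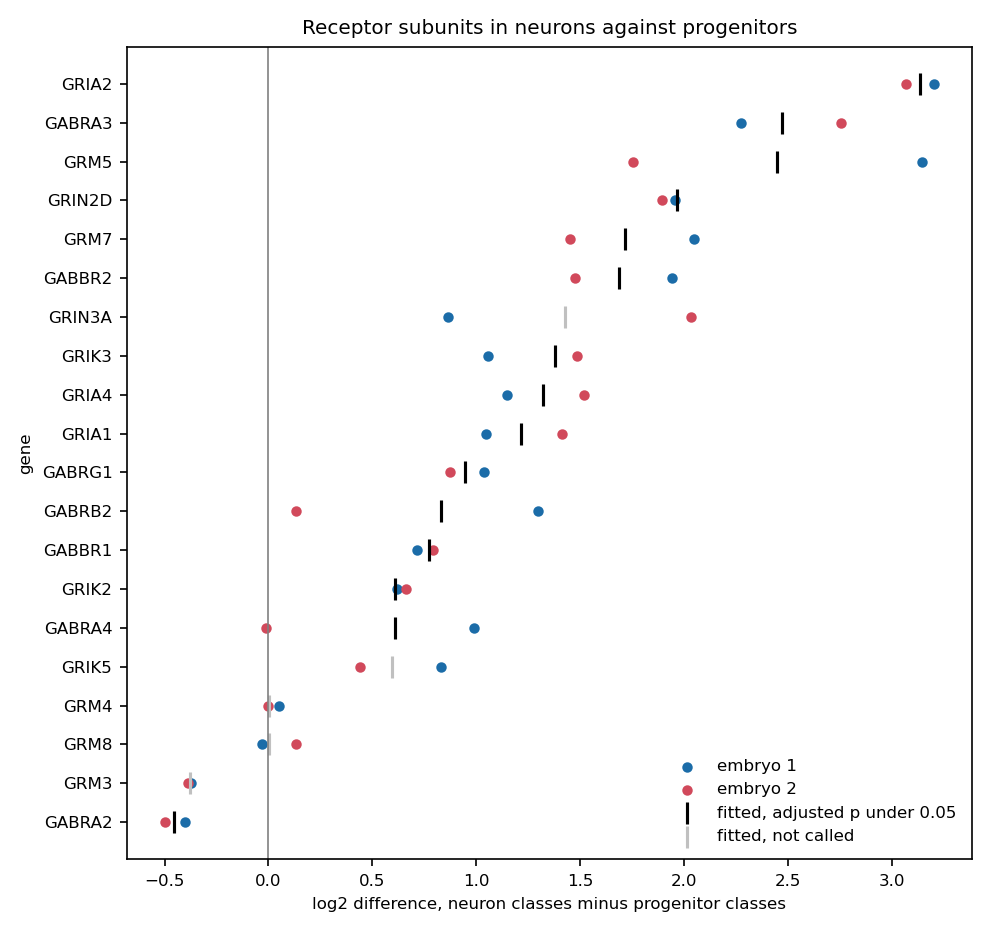
Log2 difference between the mean of the 4 neuron classes and that of radial glia and dividing cells for 20 members that passed the filter, with the value of each embryo and the fitted value (GABRR1 and GRIN3B, which had no UMI in some classes, are left out). GRIA2 lies at the top (3.13) and GABRA2 below 0 (-0.45).

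GABRA2 went the other way. This α2 subunit, abundant in fetal GABA-A receptors, had 43.8 and 47.5 CPM in radial glia and 40.0 and 37.3 in dividing cells, against 18.0 and 12.8 in midbrain or thalamus excitatory neurons and 30.9 to 54.6 in the other neuron classes. The inhibitory classes reached or exceeded the progenitor classes and the excitatory classes lay below them, and the log2 difference was -0.45 ± 0.09 (adjusted p = 1.66e-05, lower in both embryos). The radial glia class pools cluster 12, which had the highest GABRA2 level of all clusters, with the larger cluster 3. Cluster 3 held 109 and 92 GABRA2 UMIs among 3778284 and 3214441. Its level thus lay below cortical excitatory neurons in both embryos, so the order of the classes did not hold for cluster 3. Unlike GRIA2, GABRA2 exceeded background in progenitor clusters 3, 5 and 9: cluster 3 held 12.2 and 13.4 UMIs per 100 cells, cluster 5 held 25.6 and 24.0 and cluster 9 held 22.5 and 25.3, against 2.06 and 2.16 in erythroid cells. In the dividing cluster 10 it did not exceed background in both embryos. Among the α subunits, GABRA2 took 92.1% (95% exact binomial interval 87.8% to 95.2%) and 89.8% (85.1% to 93.4%) of UMIs in radial glia and 90.4% and 85.0% in dividing cells. It took 47.6% and 30.8% in midbrain or thalamus excitatory neurons, where GABRA3 took 36.9% and 44.2%.

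The progenitor clusters differed among themselves, and cluster 12, the radial glia that also expressed BCAN, had the highest summed receptor level. It had 311 and 308 CPM over all members against 92.1 and 87.4 in the other radial glia (cluster 3). GABRA2 reached its highest level of all clusters there, 101 and 105 CPM, or 47.8 and 53.6 UMIs per 100 cells, and its intervals lay apart from those of the next cluster in both embryos. GRM3, a metabotropic receptor known from astrocytes, had 22.2 and 18.0 CPM in cluster 12 against 1.59 and 1.87 in cluster 3. GABRB2 had 17.2 and 15.1 CPM against 1.32 and 3.42, and GABRG1 had 19.2 and 24.6 against 4.23 and 4.36. GRID1, a delta receptor, had 11.1 and 5.67 CPM against 0.794 and 1.87, from 11 and 6 UMIs. Cluster 12 thus stood above cluster 3 for these 5 members in both embryos, a difference that was not tested. Of the pan-neuronal genes, STMN2 had 587 CPM (mean) in cluster 12 and 154 in cluster 3, against 2504 in cortical excitatory neurons, and its part in the difference was not tested.

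Among the dividing clusters, cluster 9 (led by NRTN, FZD10) stood apart through GRIA4, the AMPA subunit typical of early circuits, and GRM8, a receptor that lowers cAMP. GRIA4 had 28.6 and 14.2 CPM in cluster 9, 3.65 and 5.82 in cluster 5 and 2.32 and 2.38 in cluster 10. It took 72.4% (62.8% to 80.7%) and 61.5% (47.0% to 74.7%) of AMPA UMIs in cluster 9. The same held in the unnamed cluster 6, where GRIA4 took 78.8% and 55.8% with 28.5 and 8.4 CPM. The embryos differed here, since the intervals of GRIA4 did not overlap between them in either cluster 6 or cluster 9. GRM8 had 10.6 and 18.2 CPM in cluster 9, 3.90 and 4.24 in cluster 5 and 4.64 and 3.58 in cluster 10. Per 100 cells, GRIA4 and GRM8 exceeded erythroid cells in cluster 9 in both embryos. For cluster 6 this did not hold for GRIA4 in embryo 2. There 24 UMIs in 678 cells stood against 4 in 231 erythroid cells, with intervals that overlapped.

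**Figure D3:**
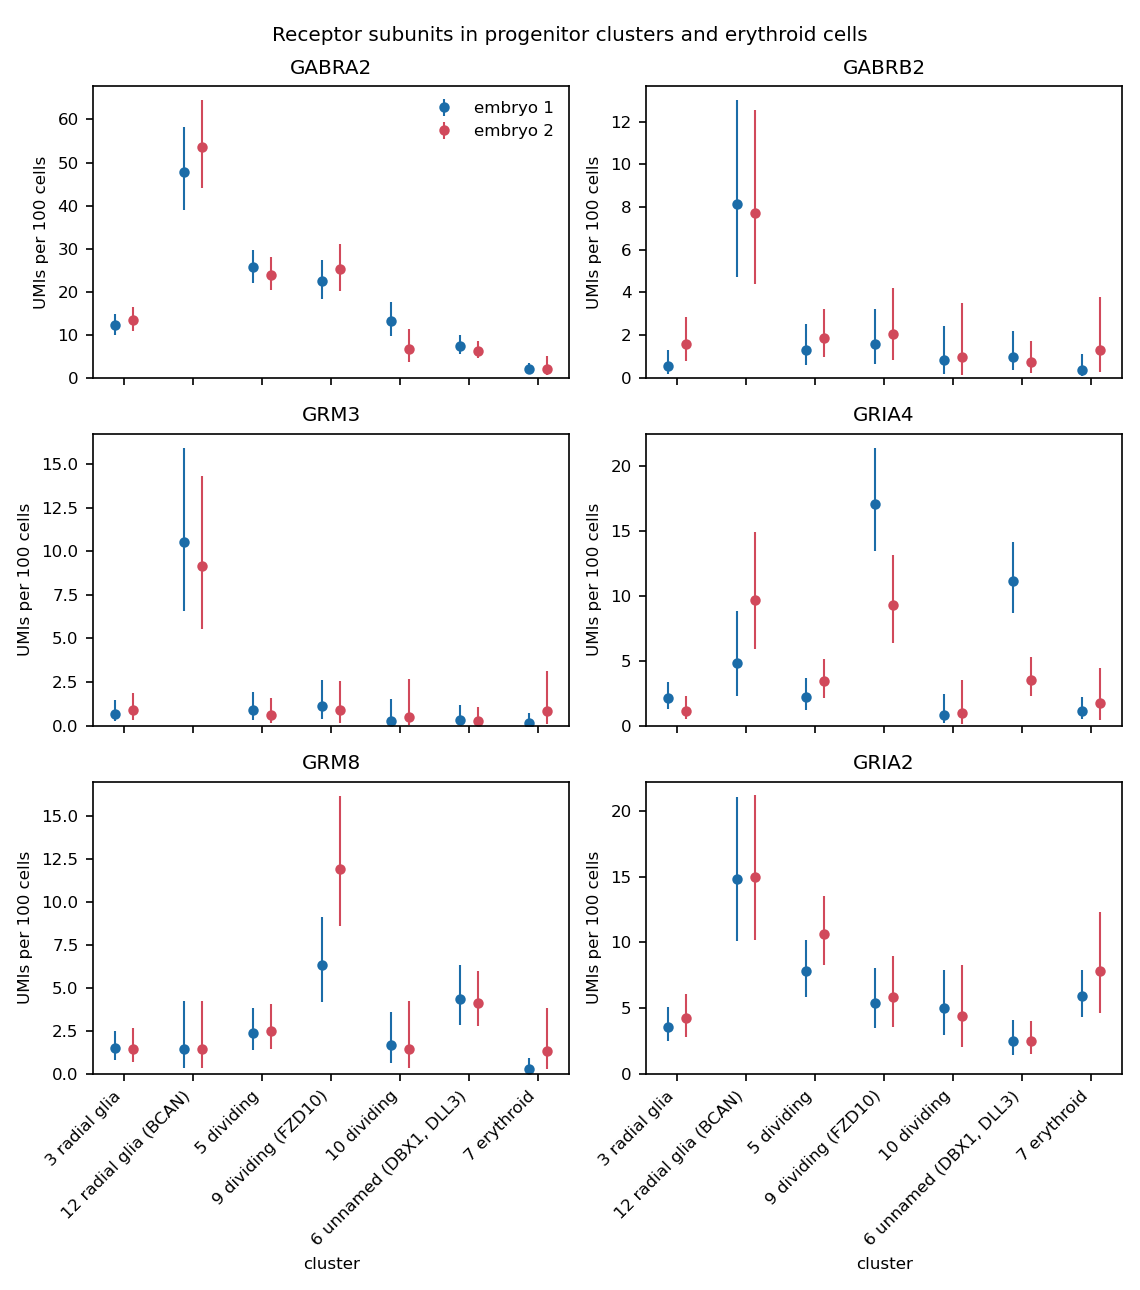
UMIs per 100 cells of 6 members in the progenitor clusters 3, 12, 5, 9 and 10, the unnamed cluster 6 and erythroid cells (cluster 7), 1 point per embryo with exact 95% Poisson intervals. GABRA2 and GRM3 peak in cluster 12, GRIA4 and GRM8 stand out in cluster 9, and GRIA2 lies near the erythroid level except in cluster 12.

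The second comparison set inhibitory against excitatory neurons. Of 25 members tested, 8 were higher in the mean of the inhibitory classes (10.5% of all genes tested) and 2 were lower (10.6% of all genes). Without the embryo as a block 5 were higher and 2 lower. The median log2 difference was 0.24 over the 25 and 0.05 over all genes tested. GABRG1, a γ subunit, had 29.2 and 34.9 CPM in forebrain and 39.3 and 55.2 CPM in midbrain or hindbrain inhibitory neurons. In midbrain or thalamus excitatory neurons it had 10.4 and 6.02 CPM, and in cortical excitatory neurons 3.41 and 11.7. The classes did not overlap, and the log2 difference was 2.31 ± 0.19 (adjusted p = 3.79e-18).

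GRM8 had a log2 difference of 2.28 ± 0.35 (adjusted p = 2.55e-07), with 25.2 and 40.1 CPM in midbrain or hindbrain inhibitory neurons, 2.83 and 6.06 in forebrain inhibitory neurons, 7.22 and 8.19 in midbrain or thalamus excitatory neurons and 0.853 and 0.507 in cortical excitatory neurons. The high value came from midbrain or hindbrain inhibitory neurons, and forebrain inhibitory neurons lay below midbrain or thalamus excitatory neurons. GRIN3A, a subunit that lowers the calcium flow of NMDA receptors, was higher by 1.90 ± 0.64 (adjusted p = 0.0236), from 10 and 8 UMIs in forebrain inhibitory, 3 and 26 in midbrain or hindbrain inhibitory, 5 and 13 in midbrain or thalamus excitatory and 0 and 1 in cortical excitatory neurons. In CPM, midbrain or thalamus excitatory neurons lay above midbrain or hindbrain inhibitory neurons in embryo 1 and above forebrain inhibitory neurons in embryo 2. Only the cortical class, with 0 and 1 UMI, lay below both inhibitory classes in both embryos. GRM7, a presynaptic receptor of low glutamate affinity, was higher by 1.67 ± 0.53 (adjusted p = 0.0141), with 2.09 to 8.01 CPM in the inhibitory and 0.426 to 4.09 in the excitatory classes. In embryo 2 midbrain or hindbrain inhibitory neurons (2.09) lay below midbrain or thalamus excitatory neurons (4.09), and the cortical class held 2 UMIs in all. Of the neuron classes, only inhibitory ones reached the level of the filter on low counts for GRM7 and GRIN3A, so both are given as a description. GRIA4 was higher by 1.29 ± 0.17 (adjusted p = 4.67e-09), GABRA2 by 1.07 ± 0.13 (adjusted p = 1.13e-10) and GRIK2, a kainate channel subunit, by 0.82 ± 0.28 (adjusted p = 0.0224). GRIA2 was called at 0.24 ± 0.09 (adjusted p = 0.0355), but lost the call under 8 of 10 alternative settings.

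GABBR2, the GABA-B subunit that couples to the G protein, was lower in inhibitory neurons by a log2 difference of -1.39 ± 0.24 (adjusted p = 4.00e-06). It had 15.4 and 26.3 CPM in cortical and 8.57 and 10.1 in midbrain or thalamus excitatory neurons, 8.48 and 4.55 in forebrain and 8.55 and 3.55 in midbrain or hindbrain inhibitory neurons. The groups lay apart in embryo 2, whereas in embryo 1 the 8.55 CPM of an inhibitory and the 8.57 CPM of an excitatory class were nearly equal. GRM5 was lower by -1.12 ± 0.25 (adjusted p = 2.52e-04), with 19.4 and 22.6 CPM in midbrain or thalamus excitatory neurons, 13.6 and 4.56 in cortical excitatory neurons and 4.55 to 10.7 in the inhibitory classes. GABBR1, the subunit that binds GABA, differed by -0.03 (adjusted p = 0.981). Of the 10 calls, those of GABBR2, GABRA2, GABRG1 and GRIA4 held under every alternative setting, GRM8 and GRM5 lost theirs only where cells were typed one by one, GRM7 in 1 of the 7 settings in which it was tested, with clusters 4 and 11 kept as a granule class, and GRIK2 and GRIN3A under 4 of 10 and 3 of 6 settings. Inhibitory cells were shallower, with medians of 2154 to 2275 UMIs against 3651 to 4590, and of the 5 pan-neuronal genes tested STMN2 (-0.41) and INA (-0.60) were lower in them; the part of either in the receptor differences was not tested.

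Inhibitory neurons of the forebrain and of the midbrain or hindbrain were compared next. Of the 25 members tested, 3 were higher in the forebrain class (8.35% of all genes tested) and 9 were lower (9.19% of all genes), and without the block 3 were higher and 5 lower. The median log2 difference was -0.30 over the 25 and -0.01 over all genes tested. GRIA1, the AMPA subunit moved into synapses during plasticity, had 55.1 and 40.0 CPM in forebrain inhibitory neurons against 2.57 and 3.76 in midbrain or hindbrain inhibitory neurons, a log2 difference of 3.69 ± 0.26 (adjusted p = 5.45e-21). GABRA4, an α subunit of extrasynaptic receptors, had 18.4 and 30.0 CPM against 0.855 and 2.51, a log2 difference of 3.65 ± 0.37 (adjusted p = 1.47e-13). GRIK3, a kainate subunit, held 10 and 13 UMIs against 0 and 2. Its fitted log2 difference was 3.64 ± 0.86 (adjusted p = 7.59e-04), and the ratio of its pooled levels was 15.1 (95% interval 3.73 to 132). Of the classes compared, only the forebrain class reached the level for GRIK3 that the filter on low counts asks for. Its values are therefore given as a description. For all 3 genes the lowest forebrain value exceeded the highest midbrain or hindbrain value.

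The shares within families moved with these levels. GRIA1 took 25.1% (21.2% to 29.3%) and 18.9% (16% to 22%) of AMPA UMIs in forebrain inhibitory neurons and 1.34% and 1.83% in midbrain or hindbrain inhibitory neurons, where GRIA4 took 27.6% and 27.4%. GABRA4 took 25.2% and 33.7% of α subunit UMIs in the forebrain class against 1.48% and 3.83%. After thinning to 2000 UMIs, GRIA1 was seen in 9.71% and 5.58% of forebrain and in 0.639% and 0.647% of midbrain or hindbrain inhibitory neurons, against 0.149% and 0.135% of erythroid cells. Without thinning these shares were 10.4% and 7.40%, 0.621% and 0.875%, and 0.771% and 0.866%, so in the midbrain or hindbrain class GRIA1 was at background.

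**Figure D4:**
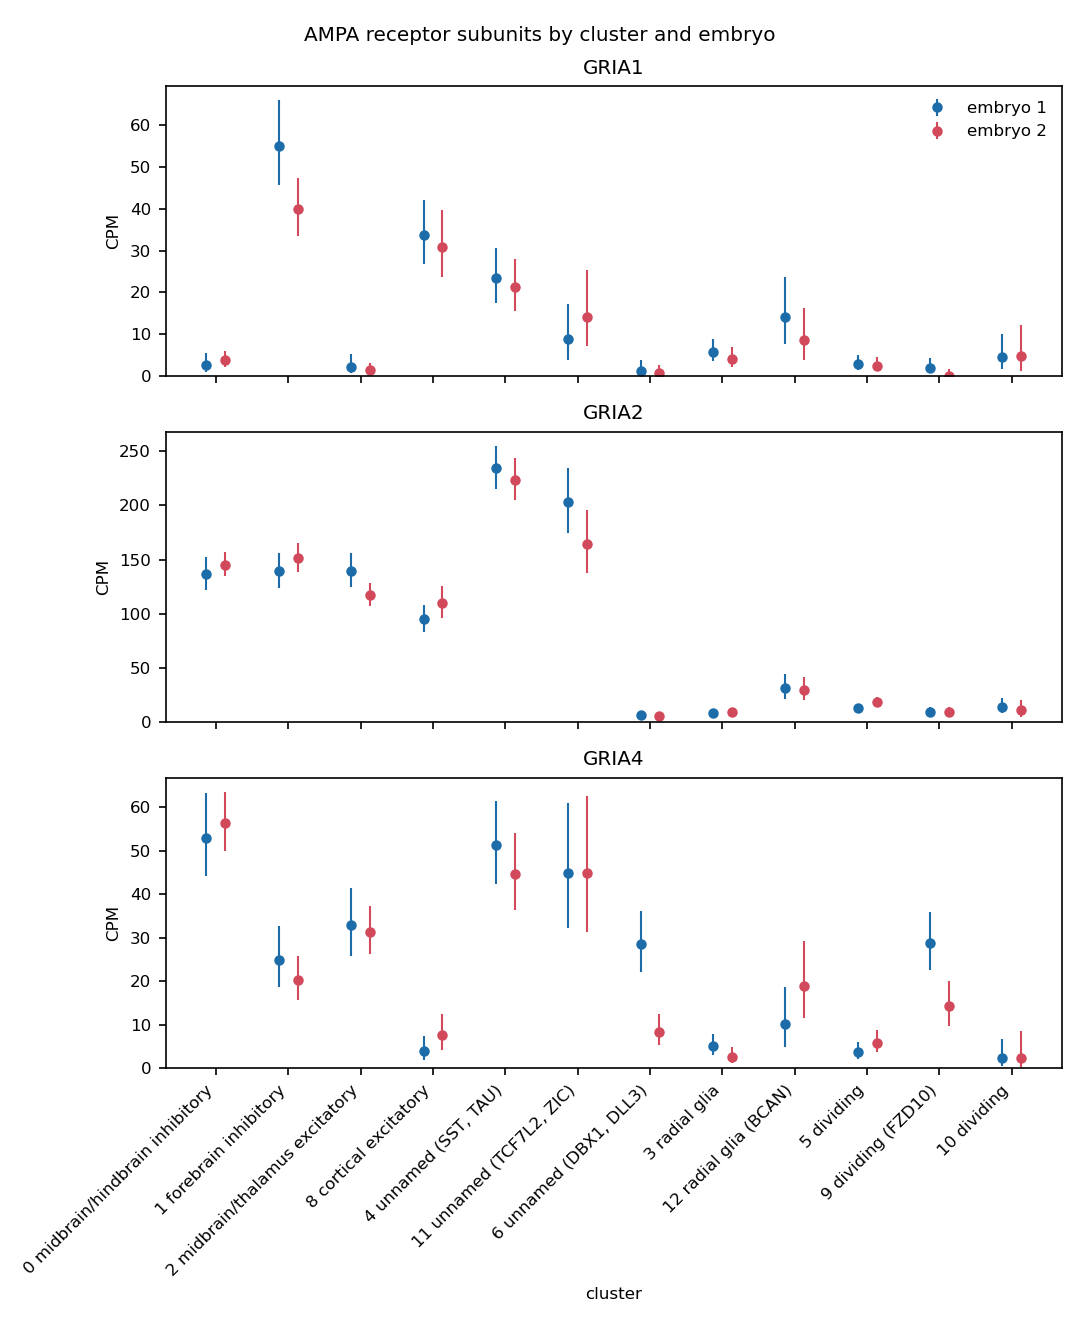
CPM of the AMPA subunits GRIA1, GRIA2 and GRIA4 per embryo (points, with exact 95% Poisson intervals) in 12 clusters of neurons and progenitors. GRIA1 is high in clusters 1 and 8 (30.9 to 55.1 CPM) and at most 3.76 CPM in clusters 0 and 2, while GRIA4 is highest in cluster 0 (53.0 and 56.4 CPM).

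The 9 members that were lower in forebrain inhibitory neurons included GABRR1, a rho subunit that forms GABA channels of slow closure. It held 29 and 43 UMIs in midbrain or hindbrain inhibitory neurons (12.4 and 8.98 CPM), 0 and 1 in forebrain inhibitory neurons and 25 more UMIs in all other cells, and the ratio of pooled levels was 54.8 (95% interval 9.53 to 2194). GABRR1 passed the filter on low counts through the class where it is high and so had to differ, and its values are given as a description. GRM8 was lower by -2.87 ± 0.27 (adjusted p = 2.91e-15). GRM3 was lower by -1.63 ± 0.57 (adjusted p = 0.0331), with 0.942 and 2.12 CPM against 5.56 and 4.81. GRIA4 was lower by -1.35 ± 0.18 (adjusted p = 1.96e-09), with 25.0 and 20.3 CPM against 53.0 and 56.4. GABRB2, a β subunit, was lower by -1.33 ± 0.37 (adjusted p = 0.00521), with 6.59 and 3.33 CPM against 11.5 and 11.3. These 5 genes did not overlap between the classes. GABRA3 (-1.20), GRM5 (-1.11), GRIK2 (-0.97) and GABRG1 (-0.62) were also lower, while GRIA2 and GABRA2 differed by 0.01 and 0.04 (adjusted p = 0.992 and 0.927). The calls of GRIA1, GABRA4 and GRIA4 held under every alternative setting. That of GRIK3 held in the 6 settings in which it was tested. Of the classes compared, GRIK3 reached the level of the filter only in the forebrain class, so its kept call adds no support. GABRR1 kept its call as well, but this adds no support, since GABRR1 had to differ. The call of GRM8 was lost where cells were typed one by one. Those of GABRA3, GABRB2, GABRG1, GRIK2, GRM3 and GRM5 were lost under 3 to 5 settings. The pan-neuronal genes DCX (1.08) and STMN2 (0.36) were higher in the forebrain class, and their part in these differences was not tested.

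A member too low to be tested also differed in its UMIs. GRIN2A, an NMDA subunit that replaces GRIN2B as circuits mature, held 17 UMIs in each embryo in midbrain or hindbrain inhibitory neurons (7.27 and 3.55 CPM) and 0 in forebrain inhibitory neurons. The lower 95% limit of the ratio of pooled levels was 6.64, and with the forebrain class set to a floor of 3 counts GRIN2A was at least 8.63-fold higher in the midbrain or hindbrain class. It held 5 and 3 UMIs in cortical and 0 and 1 in midbrain or thalamus excitatory neurons. The highest mean level of GRIN2A lay outside the neurons, in the unnamed cluster 13, which is led by embryonic globin genes. Its 7.03 CPM stood against 5.41 in cluster 0, although all NMDA subunits together held only 4 and 3 UMIs in cluster 13. The highest cluster for GRIN2A was cluster 0 in embryo 1 and cluster 13 in embryo 2. On so few UMIs, which of the 2 clusters had the higher level was not settled.

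Excitatory neurons of the cortex and of the midbrain or thalamus were compared in the same way. Of the 25 members tested, 3 were higher in the cortical class (7.66% of all genes tested) and 6 were lower (8.7% of all genes). Without the block 3 were higher and 3 lower. The median log2 difference was -0.62 over the 25 and -0.03 over all genes tested. GRIA1 had 33.7 and 30.9 CPM in cortical against 2.26 and 1.45 in midbrain or thalamus excitatory neurons, a log2 difference of 4.20 ± 0.34 (adjusted p = 1.01e-17). It took 25.4% (20.7% to 30.6%) and 20.8% (16.3% to 25.9%) of AMPA UMIs in the cortical class against 1.29% and 0.963%. GABRA2 was higher by 1.27 ± 0.21 (adjusted p = 2.00e-06), with 36.2 and 30.9 CPM against 18.0 and 12.8. GABBR2 was higher by 1.17 ± 0.29 (adjusted p = 0.00171), with 15.4 and 26.3 CPM against 8.57 and 10.1, a call that was lost with DESeq2. In each of these the classes did not overlap.

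GRM8, GRIN3A, GRM7, GRIA4, GABRA3 and GRM5 were lower in the cortical class. GRIA4 had 3.84 and 7.6 CPM against 32.9 and 31.3, a log2 difference of -2.44 ± 0.28 (adjusted p = 3.41e-11). GABRA3 had 5.54 and 4.05 CPM against 14 and 18.3, a log2 difference of -1.69 ± 0.35 (adjusted p = 9.29e-05). Both lay apart in both embryos. GRM8 held 3 UMIs in the cortical class and 50 in the other, a ratio of 11.3 (3.65 to 56.7, adjusted p = 3.00e-05). GRM7 held 2 and 22 UMIs, a ratio of 7.46 (1.83 to 65.5, adjusted p = 0.0321), and GRIN3A 1 and 18, a ratio of 12.2 (1.93 to 509, adjusted p = 0.0462). All 3 rest on at most 3 cortical UMIs.

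GRM5 had a log2 difference of -1.10 ± 0.30 (adjusted p = 0.00454), with -0.38 in embryo 1 and -2.21 in embryo 2. The embryos differed for several members in cortical neurons: GRM5 held 32 UMIs in embryo 1 and 9 in embryo 2, GABRB2 20 and 3, and GABRG1 8 and 23. The calls of GRIA1, GABRA2, GABRA3 and GRIA4 held under every alternative setting, those of GRM5, GRM7 and GRIN3A were lost under 3 of 10, 2 of 8 and 2 of 6 settings in which each was tested, and that of GRM8 where cells were typed one by one. STMN2 (-0.60), ELAVL3 (-0.81) and INA (-0.91), 3 of the 5 pan-neuronal genes tested, were lower in the cortical class, and their part in the receptor differences was not tested.

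Whether a regional difference was the same in inhibitory and excitatory neurons was tested as an interaction, which was added after the data were seen. The 2 regional differences do not cover the same regions: hindbrain is named only for inhibitory and thalamus only for excitatory neurons. A called interaction therefore cannot tell a difference between kinds of neuron from one between regions. The forebrain minus midbrain or hindbrain difference of inhibitory neurons was set against the cortical minus midbrain or thalamus difference of excitatory neurons. It exceeded the latter for 4 of 25 members (5.06% of all genes tested) and fell short of it for 2 (4.59% of all genes). Without the block these were 3 and 1. The median log2 value was 0.26 over the 25 and 0.02 over all genes tested. GABRA4 differed by 3.97 ± 0.63 (adjusted p = 1.04e-06): its regional log2 difference was 3.65 in inhibitory and -0.32 in excitatory neurons. GABRA2 differed by -1.23 ± 0.26 (adjusted p = 3.09e-04), with 0.04 in inhibitory and 1.27 in excitatory neurons. These calls held under every alternative setting. GRM7 (3.65 ± 1.05), GRIA4 (1.09 ± 0.36, adjusted p = 0.0406) and GRM3 (-2.79 ± 0.93, adjusted p = 0.0409) were called as well, and each lost the call under 1 to 5 settings. Of the classes compared, only inhibitory ones reached the level of the filter on low counts for GRM7, so its value is given as a description. The cortical class held 2 GRM7 UMIs. GRIA1 was high in forebrain inhibitory and in cortical excitatory neurons. Its interaction of -0.51 was not called (adjusted p = 0.714), with 0.39 in embryo 1 and -1.02 in embryo 2. Of the 5 pan-neuronal genes tested, 4 had a positive interaction that passed the test, DCX (0.97), STMN2 (0.97), INA (1.12) and ELAVL3 (0.80), and their part in the values of the receptors was not tested.

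**Figure D5:**
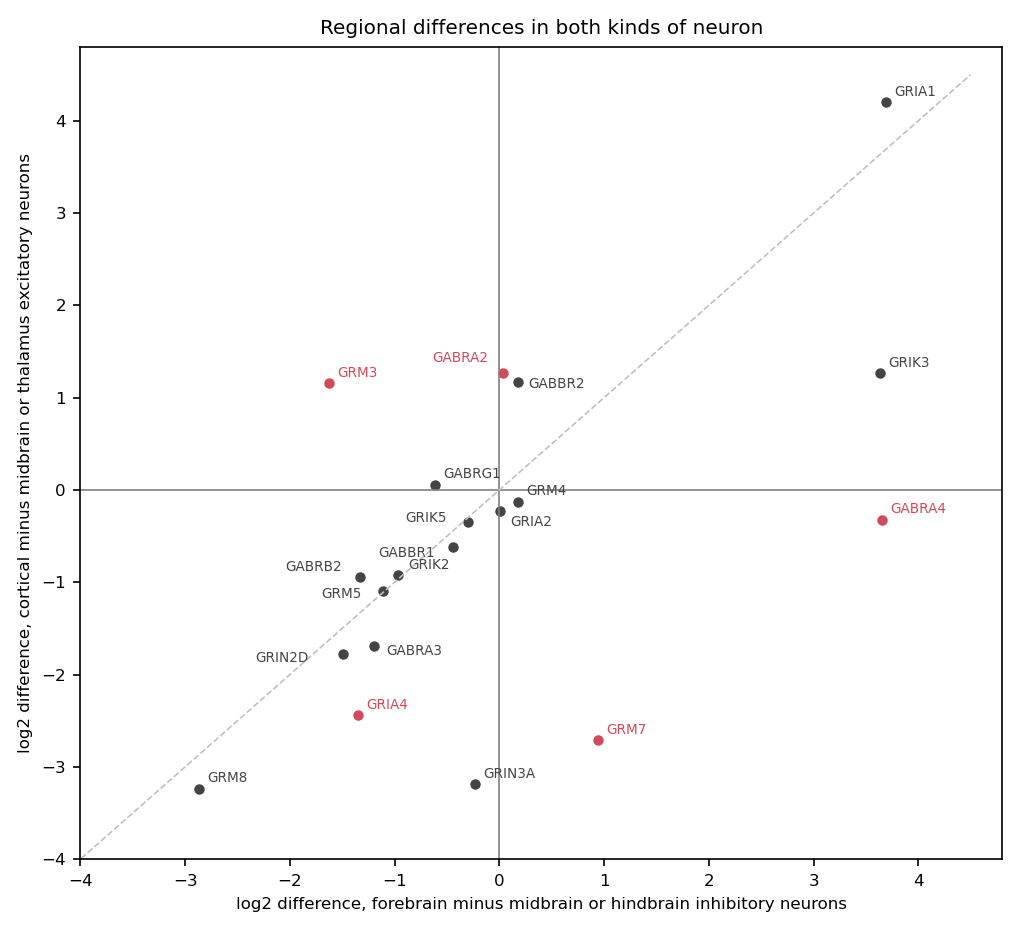
Log2 difference of forebrain minus midbrain or hindbrain inhibitory neurons (x axis) against that of cortical minus midbrain or thalamus excitatory neurons (y axis) for 20 members, with the line of equal differences dashed. The 5 members in red passed the test of the interaction; GRIA1 lies at the top right (3.69 and 4.20) and GRM8 at the bottom left (-2.87 and -3.24).

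The unnamed cluster 4 had the highest level of 9 of the 20 members whose highest cluster was the same in both embryos, among them GABBR2, GABRB1, GABRG1, GRIA2, GRIN2B, GRM5 and GRM7. Clusters 0 and 12 held the highest level of 4 members each, cluster 1 of 2 and cluster 11 of 1. The share of all genes that were highest in cluster 4 was not counted, so the 9 of 20 cannot be read as particular to receptors. GRIA2 had 234 and 224 CPM in cluster 4, or 73.8 and 76.5 UMIs per 100 cells. GRM7 had 22.1 and 15 CPM there, and its intervals lay apart from those of the next cluster in both embryos. GRIN2B, the NMDA subunit that dominates before birth, had 7.95 and 11.0 CPM in cluster 4 and at most 5.48 in any other neuron or progenitor cluster, and GRIN1 had 6.18 and 8.39. Cluster 4 also had the highest STMN2 level, 4451 CPM (mean), and held both GAD2 (527 CPM) and the vesicular glutamate transporter SLC17A6 (99.1 CPM). With the granule name withheld, cluster 4 was assigned to neither kind of neuron, and its receptor levels were not tested on their own.

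The remaining members were low. GRIK5, a kainate subunit that needs a partner to form a channel, had 1.47 to 4.70 CPM in the neuron and progenitor classes, and GRIK4 had 0.468 to 2.93. GABRA5, GABRG3 and GABRB1 reached 4.41, 3.97 and 7.06 CPM in cluster 4, and at most 2.56 CPM in the named neuron and progenitor classes. GRIN3B held 0 to 1 UMI in each neuron and progenitor class of an embryo. GLRB, the glycine receptor subunit that binds the scaffold gephyrin, was the only member of its family, with 2.14 and 3.34 CPM in midbrain or hindbrain inhibitory neurons and at most 2.53 in the other named neuron and progenitor classes. None of these passed a test, and all but GRIK5 and GRIN3B were below the filter on low counts.

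Of 30 partner genes of these receptors that could be tested, 23 were higher in neurons than in progenitors and 3 were lower, where 31.5% of all genes tested were higher and 33.4% lower. Of 14 AMPA and kainate auxiliary subunits, 5 could be tested and 5 were higher than in progenitors, among them CACNG2 (stargazin, log2 difference 3.65 ± 0.26) and CNIH2 (2.13 ± 0.19). Of 13 excitatory scaffolds tested, 9 were higher, such as SHANK1 (2.97 ± 0.48) and DLG2 (2.83 ± 0.24), and DLG1 (-1.58 ± 0.13) and HOMER3 (-0.19 ± 0.08) were lower. Of 9 inhibitory scaffolds, 8 were higher, such as IQSEC3 (2.76 ± 0.42) and LHFPL4 (2.62 ± 0.30), which holds GABA-A receptors at synapses. Of 3 genes of transmitter uptake and chloride transport, 1 was higher, 1 lower and 1 not called: the chloride exporter SLC12A5 was higher by 2.02 ± 0.29 and the importer SLC12A2 lower by -0.55 ± 0.15. For comparison, 5 of 5 pan-neuronal genes tested were higher, with a median of 3.33.

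Between inhibitory and excitatory neurons, 9 of the 30 partners were higher and 3 lower (10.5% and 10.6% of all genes tested). Among them NETO2, a kainate receptor auxiliary subunit, was higher by 1.17 ± 0.06, CACNG4 by 0.46 ± 0.13, SHANK1 by 1.32 ± 0.39, IQSEC3 by 1.23 ± 0.37, PLCL2 by 1.04 ± 0.20, SLC12A5 by 1.28 ± 0.29 and SLC12A2 by 0.63 ± 0.21, and CNIH2 (-0.82 ± 0.18), DLG2 (-0.62 ± 0.20) and HOMER1 (-0.41 ± 0.15) were lower. In forebrain against midbrain or hindbrain inhibitory neurons 4 of 30 were higher and 5 lower (8.35% and 9.19% of all genes tested). Among them SLC12A5 (-2.05 ± 0.28), PLCL1 (-1.71 ± 0.19), SLITRK3 (-0.94 ± 0.23) and NETO2 (-0.31 ± 0.07) were lower. HOMER2 (1.25 ± 0.40), PLCL2 (1.01 ± 0.23) and DLGAP4 (0.59 ± 0.14) were among the higher ones. In cortical against midbrain or thalamus excitatory neurons 1 was higher and 3 were lower (7.66% and 8.7% of all genes tested). SHANK1 (-2.15 ± 0.66), SLC12A5 (-1.81 ± 0.48) and DLG3 (-0.68 ± 0.15) were lower and NETO2 (0.76 ± 0.09) was higher. SLC12A5 was thus lower in forebrain inhibitory and in cortical excitatory neurons than in the class each was compared with. All of these passed the same test at an adjusted p under 0.05.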

How the data were processed

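The authors sequenced 1 droplet library per embryo, processed the reads with cellranger against the TS_2.0 assembly and deposited raw UMI counts per gene model and called cell barcode. The submitters' processing notes also name Cell Ranger 3.1.0, fastp and Seurat 3. Models of one name were summed, which concerned GRIA1, GRM4 and GRM8 among others. Levels compare cell groups and not genes, since 3′ tags depend on the annotated ends.

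Cells with at least 200 genes were scaled to 10000 UMIs, and 2000 variable genes without members or partner genes gave 20 principal components and a 20-neighbour graph, which leidenalg 0.10.2 split at a resolution of 0.5 (Python 3.11.15). A cluster took the name of the type for which most markers (at least 3) counted, a marker counting when found in at least 10% of its cells and 2 times higher there than elsewhere. The granule name was withheld from clusters 4 and 11, a choice made after seeing the data, since ATOH1 had 3 UMIs in all and BARHL1 has no model. Doublets were kept, because Scrublet in scanpy 1.11.5 called 1 cell per embryo and so did not work.

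UMI sums per embryo and named class (at least 20 cells) were fitted together in edgeR 4.0.16 (R 4.3.3) with TMM, filterByExpr, the embryo as a block and a threshold of 0.05. Sums of 1 embryo come from the same animal, and their deviations correlated at 0.107 to 0.234 over 15 pairs of classes. The standard error is the log2 difference over the square root of F. Named were, per comparison, up to 5 called members with the largest and 5 with the smallest difference, the highest member of each family, and up to 2 partners per list and direction. Counts cover all members, but the values of some genes that the rule names are not reported here. The fit was tested on simulated data. Members, markers and lists were chosen with earlier results of these data known. Alternatives were RLE factors, no filter on genes, DESeq2 1.42.0, no block, at least 1000 genes per cell, a resolution of 1.0, highest Scrublet scores left out (566 and 696 cells), cells with at least 1% haemoglobin left out, cells typed one by one from the fixed markers, clusters 4 and 11 kept as a granule class (added after seeing the data), and each embryo alone.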

Additional observations from a re-analysis of the deposited data

Results flagged for a closer look

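The regional difference of inhibitory neurons and that of excitatory neurons differed, by the test of the interaction in edgeR, for GABRA4 (3.97 on the log2 scale, inhibitory minus excitatory), GRM7 (3.65), GRIA4 (1.09), GRM3 (-2.79) and GABRA2 (-1.23). The values in embryos 1 and 2 were 3.19 and 5.88 for GABRA4, 2.43 and 3.66 for GRM7, 1.80 and 0.45 for GRIA4, -3.80 and -1.62 for GRM3 and -1.08 and -1.27 for GABRA2. The regions compared were not the same in the 2 kinds of neuron, so kind and region cannot be told apart here. For GRM7 only inhibitory classes reached the level of the filter on low counts, so its values are given as a description.

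Outside the neural classes, 2 members exceeded the erythroid background per 100 cells in both embryos. The share of all genes that did so was not counted. GRIN3B had 6.29 UMIs per 100 cells (mean) in the fibroblast or pericyte class, from 3 UMIs in 58 cells and 4 in 54, against 0 in erythroid cells. GRM8 had 11.5 in the endothelial class, from 3 UMIs in 44 cells and 7 in 43, against 0.257 and 1.30 in erythroid cells. No comparison of the report used these classes.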

How the results depend on the processing

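With RLE size factors, no filter on genes or cells with at least 1% haemoglobin left out, every count of called members stayed within 1.5 times its value. The others moved these counts. In neurons against progenitors, 2 members were lower, and 1 was with DESeq2, at a resolution of 1.0, with the highest Scrublet scores left out, with cells typed one by one and with clusters 4 and 11 kept as a granule class. In inhibitory against excitatory neurons, the 8 higher members became 4 with DESeq2, 5 without the block, 4 with at least 1000 genes per cell, 3 with typed cells and 5 with the granule class, and the 2 lower ones 1 with typed cells and 6 with the granule class. In forebrain against midbrain or hindbrain inhibitory neurons, the 9 lower members became 2 with DESeq2, 5 without the block, 5 with at least 1000 genes and 1 with typed cells. In cortical against midbrain or thalamus excitatory neurons, the 6 lower ones became 3 with DESeq2, 3 without the block, 10 at a resolution of 1.0 and 2 with typed cells. In the interaction, the 4 higher ones became 1 with DESeq2, with at least 1000 genes and with typed cells, and the 2 lower ones 1 without the block, with at least 1000 genes, at a resolution of 1.0, without the highest Scrublet scores and with typed cells. The cause was not tested.

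The direction turned for GRM8 in neurons against progenitors with at least 1000 genes per cell (-0.57), for GABRA4 in the same comparison without embryo 1 (-0.011), and for GRIA2 in inhibitory against excitatory neurons with typed cells (-0.073) and with the granule class (-0.023). At least 1000 genes per cell left no radial glia class. Leaving out an embryo left no residual degrees of freedom, so those values have no test. The alternatives for the precursor class were not run. Calls held under every setting in which the gene was tested for 13 of 18 members in neurons against progenitors, 4 of 10, 5 of 12 and 4 of 9 in the next comparisons and 2 of 6 in the interaction. Of these kept calls, those of GRIN2D and GRM7 in neurons against progenitors and of GABRR1 and GRIK3 in forebrain against midbrain or hindbrain inhibitory neurons were tested in 9, 8, 7 and 6 of 10 settings. GABRR1, which had to differ, is counted among the 5 of 12. So is GRIK3, which of the classes compared reached the level of the filter only in the forebrain class. GRIN2D and GRM7, counted among the 13 of 18, reached that level only in neuron classes of those compared, so their kept calls add no support. With the embryo as a block, a shift common to all classes of an embryo is removed. The p-values therefore rest on how class sums still varied between these embryos, with the spread estimated over all named classes together. They do not measure variation between animals at large. With n = 2 embryos of 1 age and 11 of 36 members below the filter, a member not called may still differ.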
